A study of Mus musculus with 6 samples.

Results

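The circadian clock genes Per1, Per2, Per3, Cry1, Arntl, Clock, Nr1d1, Nr1d2, Dbp and Tef were examined in endothelial cells (EC) of the mouse lung. Members were the rows of the RPKM table whose gene symbol was on this list, and all 10 of the 10 symbols were found among 12623 genes, in 13 of 17241 transcript rows. RPKM is the number of reads per kilobase of transcript and per fixed number of mapped reads. The libraries came from lung EC of C57BL/6N mice, 3 of infant and 3 of young adult animals, with no further allele or treatment in the labels. According to the methods of the study, the cells were digested out of the lung with collagenase and sorted as living CD31+CD34+ cells that lacked PTPRC, LYVE1, PDPN and LY76, the mice lived in a light-dark cycle, and lungs were taken within days of delivery. Neither the clock time of collection nor the number of animals behind a library is given in the sources used here.

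The clock of mammalian cells is a feedback loop of transcription that takes about a day to run. CLOCK and ARNTL (also called BMAL1) bind E-box elements and switch on the Per and Cry genes, whose proteins return to the nucleus and block their own activators. The same activators drive the nuclear receptors NR1D1 and NR1D2 (REV-ERB), which repress Arntl through ROR elements, and the factors DBP and TEF, which act on D-box elements of further genes. In many tissues, Arntl transcripts are therefore high when Dbp, Nr1d1 and Per transcripts are low. No library follows this cycle over a day, so that a difference in phase and a difference in the level over the whole day cannot be told apart here.

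Clock genes were mostly lower in young adult than in infant EC, whereas Arntl was higher. In such bulk samples, fewer cells of a type and less RNA per cell cannot be told apart. Per2, Per3, Cry1, Nr1d2 and Tef fell, and their ratios of mean RPKM ranged from 0.113 for Per2 to 0.390 for Cry1. These 5 of 10 members were called lower and 0 higher (limma on log2(RPKM + 1), Benjamini-Hochberg adjusted p under 0.05 and a log2 fold change beyond 0.81 in size, the fold threshold), beside 8.10% of all 12458 genes tested called lower and 3.33% called higher. With a pseudocount of 5 in place of 1 the count was 2, Per2 and Tef. Per3 (-0.66), Nr1d2 (-0.73) and Cry1 (-0.40) were then under the fold threshold. Of all 12458 genes, 338 were called lower at this setting, in place of 1009. By the adjusted p alone, without the fold threshold, 6 members were lower and 1 was higher, beside 16.2% and 9.26% of all genes. The groups did not overlap in 8 members, 7 of them lower in young adult EC. Over all genes this held for 43.4% in either direction and for 27.1% with young adult EC lower. The median log2 fold change of the members was -0.93, and that of all genes tested was -0.07.

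**Figure D1:**
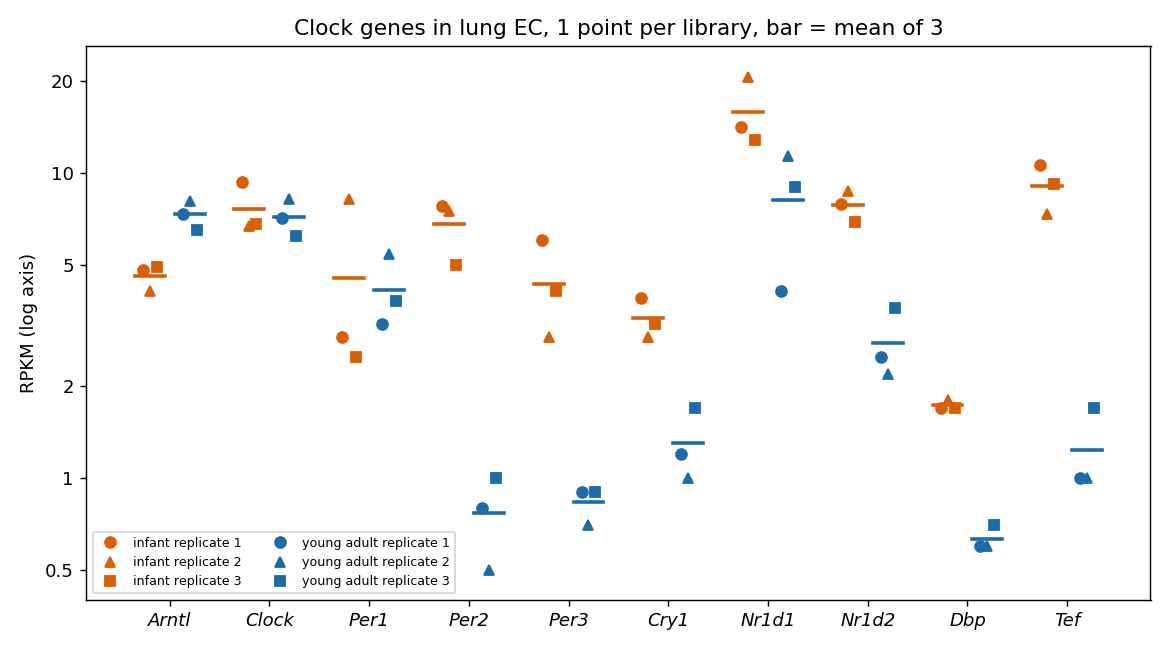
RPKM (log axis) of the 10 clock genes in each library, with infant libraries in orange, young adult libraries in blue, 1 symbol per replicate and a bar at the mean of 3. Per2 measured 5.0 to 7.8 RPKM in infant and 0.5 to 1.0 RPKM in young adult libraries, Arntl is the member whose young adult points lie above all infant points, and Per1 and Clock overlap between the groups.

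Some facts of the libraries touch all results that follow. Endothelial markers were abundant in every library, with a summed RPKM of 16 genes between 3803.5 and 5544.1 in infant and between 5886.3 and 6437.8 in young adult EC. Transcripts of other cells differed with age. Over all genes, 8.10% were called lower and 3.33% higher. 9 of 10 fibroblast markers were called lower, and their summed RPKM was 1290.8, 335.5 and 909.2 in infant replicates 1 to 3 and between 10.4 and 24.0 in young adult EC. 8 of 9 mural, 4 of 9 epithelial, 2 of 8 leukocyte and 7 of 7 erythroid markers were called lower as well, with sums of 68.2 to 233.2, 6481.3 to 11324.9, 320.0 to 515.6 and 9655.9 to 79864.4 RPKM in infant and of 11.8 to 15.5, 1806.4 to 8332.7, 140.0 to 555.1 and 822.2 to 1350.7 RPKM in young adult EC. Of 4 lymphatic endothelial markers, 1 was called higher (sums of 89.9 to 192.2 and 268.8 to 411.3 RPKM). That marker was Lyve1 (68.6 to 171.4 RPKM in infant and 252.9 to 396.4 RPKM in young adult libraries), which made up most of these sums. The other 3 had log2 fold changes below 0 and were not called. No marker in the table was at 0 in all libraries. The part of these cells in the age differences of clock genes was not tested. The Y-linked gene Ddx3y measured 16.5 to 21.9 RPKM in infant libraries and was listed at 0 in each young adult library, so that age and the sex of the animals cannot be told apart. The methods of the study name female mice, which the infant values of this gene go against.

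The activators of the loop differed from each other. Arntl, on chromosome 7 (113207465 to 113314126, GRCm38, plus strand), encodes the partner of CLOCK. It measured 4.8, 4.1 and 4.9 RPKM (infant 1 to 3) against 7.3, 8.1 and 6.5 RPKM (young adult 1 to 3). Every young adult library lay above every infant library. The log2 fold change was 0.57 ± 0.11 (SE, n = 3 each, limma adjusted p 0.0127), a ratio of mean RPKM of 1.59 that stayed under the fold threshold. Leaving out young adult replicate 1 gave an adjusted p of 0.051 and leaving out replicate 2 of that group 0.0563, and the other 4 fits without 1 library kept it under 0.05.

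Arntl was the only member with a match to the ROR element, AANT or ATNT followed by AGGTCA or GGGTCA on either strand, in the RefSeq promoter windows (GRCm38.p6, 250 bases before to 50 after each annotated start, 14 windows for 9 of the 10 members, no window for Per2). Such a match occurred in 0.773% of all 32851 windows. It began 27 bases after 1 of the starts of Arntl, at chr7:113207538-113207547 on the plus strand. It is shown because NR1D1 and NR1D2 act on Arntl through this kind of element, with the match in capitals and 10 bases on either side.
Arntl: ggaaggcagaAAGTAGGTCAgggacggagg

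Clock (chromosome 5, 76209868 to 76304792, minus strand), which encodes the other activator, measured 9.3, 6.7 and 6.8 RPKM (infant 1 to 3) against 7.1, 8.2 and 6.2 RPKM (young adult 1 to 3). The groups overlapped. Its log2 fold change was -0.07, with a 95% confidence interval from -0.41 to 0.28 and an adjusted p of 0.763, and its sign changed with the scaling of the libraries. In young adult EC Arntl and Clock had close levels per kilobase, 7.3 ± 0.8 and 7.17 ± 1.0 RPKM (SD, n = 3).

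The repressors PER1, PER2, PER3 and CRY1, which close the loop, were not alike at the transcript level. Per2 (chromosome 1, 91415982 to 91459324, minus strand) measured 7.8, 7.5 and 5.0 RPKM (infant 1 to 3) against 0.8, 0.5 and 1.0 RPKM (young adult 1 to 3). The groups lay far apart, and the lowest infant library was at 5.0. Mean RPKM fell from 6.77 ± 1.54 to 0.767 ± 0.252 (SD, n = 3 each), with a log2 fold change of -2.13 ± 0.18 (SE, limma adjusted p 0.000921). In young adult EC the rounding of the table to 0.1 RPKM is coarse against such values.

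Per3 (chromosome 4, 151003652 to 151044665, minus strand) measured 6.0, 2.9 and 4.1 RPKM (infant 1 to 3) against 0.9, 0.7 and 0.9 RPKM (young adult 1 to 3). The infant libraries spread more widely than those of the young adults but stayed above them throughout. Per3 fell, with a log2 fold change of -1.50 ± 0.21 (SE, adjusted p 0.00367). The D-box, TTACGTAA or TTATGTAA on either strand, was found in 1.06% of all promoter windows, and Per3 was the only member with a match. The stretch is shown because Dbp and Tef, whose proteins bind D-boxes, were measured in the same libraries. It spans chr4:151044796-151044890 (minus strand), with the matches at 205 and 158 bases before the annotated start in capitals.
Per3: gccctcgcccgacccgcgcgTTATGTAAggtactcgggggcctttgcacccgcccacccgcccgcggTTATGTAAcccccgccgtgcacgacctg

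Cry1 (chromosome 10, 85131700 to 85185064, minus strand) encodes the cryptochrome that represses CLOCK and ARNTL most directly. It measured 3.9, 2.9 and 3.2 RPKM (infant 1 to 3) against 1.2, 1.0 and 1.7 RPKM (young adult 1 to 3). The groups did not overlap. Cry1 fell, with a log2 fold change of -0.92 ± 0.15 (SE, adjusted p 0.007) and a ratio of mean RPKM of 0.390. With quantile normalization the log2 fold change was -0.66, and the call was lost.

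Per1 (chromosome 11, 69095217 to 69109960, plus strand), a period gene that light, cAMP and glucocorticoids also induce, measured 2.9, 8.2 and 2.5 RPKM (infant 1 to 3) against 3.2, 5.4 and 3.8 RPKM (young adult 1 to 3). Infant replicate 2 was the highest of all 6 libraries, and the other infant libraries were the lowest. On the log2 scale the difference was 0.01, with a 95% confidence interval from -0.81 to 0.83 (adjusted p 0.984). Changes in either direction within this interval were not excluded. Without infant replicate 2 it was 0.45 (adjusted p 0.0971), and without infant replicate 3 it was -0.25.

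E-boxes occurred in the windows of Per1, Cry1 and Tef. CACGTG was found in 7.15% of all windows and its variant CACGTT, on either strand, in 4.68%, the latter in Cry1 and Nr1d1 among the members. The stretches are shown because CLOCK and ARNTL bind this element, with matches in capitals and up to 20 bases on either side. Those of Per1 and Tef lie on the plus strand (chr11:69098763-69098808, chr15:81802526-81802571 and, for another start of Tef, chr15:81811256-81811301), and those of Cry1 (chr10:85185089-85185153) and Nr1d1 (chr11:98775380-98775425) on the minus strand. No matches overlapped. The windows of Dbp, Nr1d2 and Clock held none of these motifs, and none of the members had a CRE (TGACGTCA, 1.79% of all windows). These letters are described for the printed windows only.
Per1: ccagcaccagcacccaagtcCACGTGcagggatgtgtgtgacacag
Cry1: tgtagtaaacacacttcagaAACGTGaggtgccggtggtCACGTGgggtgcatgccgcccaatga
Nr1d1: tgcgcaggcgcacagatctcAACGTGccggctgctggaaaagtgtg
Tef: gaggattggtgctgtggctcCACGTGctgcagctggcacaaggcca
Tef, other start: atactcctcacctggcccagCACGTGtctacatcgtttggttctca

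Members with and without such a match were found on either side of the test. Per1 held CACGTG and overlapped between the groups, Tef and Cry1 held it and fell, and Nr1d2 fell without a match in its window. Bases outside the windows were not searched, and a part of these motifs in the age differences was not tested.

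The nuclear receptor genes were both lower in young adult libraries, with different certainty. Nr1d2 (REV-ERB beta, chromosome 14, 18204054 to 18239127, minus strand) measured 7.9, 8.7 and 6.9 RPKM (infant 1 to 3) against 2.5, 2.2 and 3.6 RPKM (young adult 1 to 3). It fell by 1.24 on the log2 scale (SE 0.16, limma adjusted p 0.00268). Nr1d1 (REV-ERB alpha, chromosome 11, 98767932 to 98775333, minus strand) was the most abundant member per kilobase in either group, at 14.1, 20.5 and 12.8 RPKM (infant 1 to 3) against 4.1, 11.3 and 9.0 RPKM (young adult 1 to 3). The groups did not overlap, but young adult replicate 2 came close to infant replicate 3. The log2 fold change of -0.95 ± 0.32 did not pass the test (adjusted p 0.0653), and it ranged from -1.21 to -0.57 in the fits without 1 library. After rescaling of the libraries without globin genes it was -1.04, and Nr1d1 was called (adjusted p 0.0351). The end of Nr1d1 shares 263 exonic bases with Thra on the other strand, which encodes a thyroid hormone receptor. The counting is not stated to use strand, so reads from these bases cannot be assigned. Thra measured 8.3 to 10.3 RPKM in infant and 5.9 to 7.8 RPKM in young adult libraries (-0.40 on the log2 scale, adjusted p 0.0509).

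Dbp and Tef encode related PAR bZIP factors that carry the rhythm of the loop to output genes. Tef (chromosome 15, 81802421 to 81826863, plus strand) measured 10.6, 7.3 and 9.2 RPKM (infant 1 to 3) against 1.0, 1.0 and 1.7 RPKM (young adult 1 to 3). The gap between the groups was wide. The log2 fold change of -2.17 ± 0.17 (SE, adjusted p 0.000642) was the lowest of the 10 members. Tef shares 193 exonic bases with the antisense gene Gm17597.

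Dbp (chromosome 7, 45705088 to 45710203, plus strand) was the least abundant member in either group. It measured 1.7, 1.8 and 1.7 RPKM (infant 1 to 3) against 0.6, 0.6 and 0.7 RPKM (young adult 1 to 3), so that the groups were tight and apart. The log2 fold change of -0.74 ± 0.12 (SE, adjusted p 0.00607) was under the fold threshold, although the mean RPKM was 2.74-fold lower, because the pseudocount of 1 is large against such levels. With a pseudocount of 0.1 the log2 fold change was -1.32, and Dbp was called. With quantile normalization it was -0.41, and the limma adjusted p of 0.0528 was no longer under 0.05. Dbp shares 539 of its 2993 exonic bases with Sphk2, which lies on the other strand and measured 4.5 to 5.3 RPKM in infant and 3.7 to 4.4 RPKM in young adult libraries. As for Nr1d1, reads from these bases cannot be assigned.

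**Figure D2:**
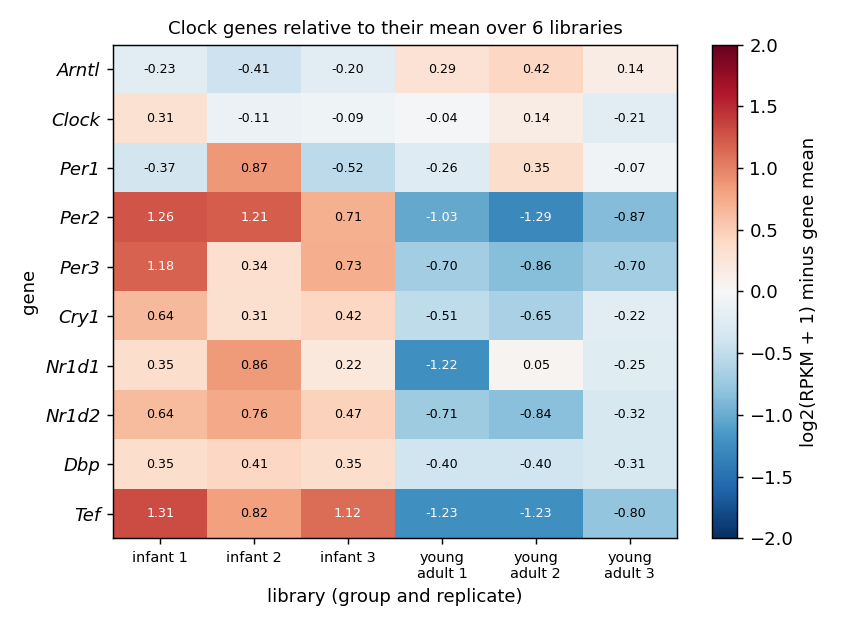
log2(RPKM + 1) of each clock gene (rows) in each library (columns) after subtraction of the mean of the gene over the 6 libraries, in red above and in blue below that mean. Tef ranges from 1.31 in infant replicate 1 to -1.23 in young adult replicates 1 and 2, Arntl has the opposite signs, and Per1 is highest in infant replicate 2 (0.87).

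Dbp and Arntl lie on opposite arms of the loop, and their plain quotient within a library does not depend on the scale of that library. The quotient of Dbp to Arntl was 0.354, 0.439 and 0.347 (infant 1 to 3) against 0.0822, 0.0741 and 0.108 (young adult 1 to 3). The ratio was lower in each young adult library than in each infant library. As log2((Dbp + 1)/(Arntl + 1)) its mean was -1.03 ± 0.15 for infant EC against -2.34 ± 0.19 for young adult EC (SD over 3 libraries), which differ by -1.31. With the pseudocount this value does depend on scale, and it was -1.98 with a pseudocount of 0.1 and -0.61 with 5. It is given as a description without a test, since it combines members whose directions are shown above.

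The order of the members by level per kilobase changed with age. In infant EC it ran from Nr1d1 (15.8 RPKM) through Tef (9.03), Nr1d2 (7.83), Clock (7.60), Per2 (6.77), Arntl (4.6), Per1 (4.53), Per3 (4.33) and Cry1 (3.33) to Dbp (1.73). Only the steps from Nr1d1 to Tef, from Per2 to Arntl and from Cry1 to Dbp separated neighbours whose libraries did not overlap. In young adult EC Nr1d1 (8.13 RPKM), Arntl and Clock led and overlapped with their neighbours in this order, and Per3 (0.833), Per2 (0.767) and Dbp (0.633) came last and overlapped as well. Tef moved from rank 2 to rank 7 and Arntl from rank 6 to rank 2.

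Infant replicate 2 stood apart from the other infant libraries in its markers. It was the lowest of the 3 in 8 of 10 fibroblast, 8 of 9 mural and 7 of 7 erythroid markers and the highest in 14 of 16 endothelial markers. The fibroblast markers Dcn (7.6, 19.9 and 8.0 RPKM in infant 1 to 3) and Lum (4.1, 14.4 and 4.7 RPKM) were highest in it, and so was the epithelial sum (11324.9 RPKM). The leukocyte sum was also highest in it (515.6 RPKM), but most of that sum was Lyz2 (467.1 RPKM). Of 8 leukocyte markers, 7 were highest in infant replicate 3 and 1 in infant replicate 2. Per2, Dbp and Nr1d2 measured 7.5, 1.8 and 8.7 RPKM in it, which was within or above the other infant libraries. Per3, Tef and Cry1 were lowest in it among the infant libraries, as were Arntl and Clock. It was the lowest infant library in 5 of 10 members and the highest in 4. Of the 14 other genes of the clock taken up below, it was the lowest in 9 and the highest in 1. Each of the 5 called members was called in all 6 fits without 1 library. Their log2 fold changes without infant replicate 2 were -2.05 for Per2, -1.71 for Per3, -0.99 for Cry1, -1.17 for Nr1d2 and -2.30 for Tef.

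Of 20 other genes of the clock, 14 were in the table and tested. Of these, 3 were called lower and 0 higher, beside 8.10% and 3.33% of all genes. Their median log2 fold change was -0.33, beside -0.07 for all genes. Cry2, the second cryptochrome gene, measured 8.9, 5.9 and 6.7 RPKM (infant 1 to 3) against 0.7, 1.1 and 1.7 RPKM (young adult 1 to 3). Like Cry1 it did not overlap between the groups, with a log2 fold change of -1.92 ± 0.20 (SE, adjusted p 0.00149), and it was called in all 6 fits without 1 library. Hlf, the third PAR bZIP gene beside Dbp and Tef, measured 5.9, 0.9 and 6.5 RPKM (infant 1 to 3), while no young adult library exceeded 0.1 RPKM. It was lowest in infant replicate 2. Its log2 fold change was -2.11 ± 0.48 (adjusted p 0.0185), and the call was kept only in the fit without infant replicate 2. Rora, an activator at ROR elements, measured 10.9, 5.0 and 8.0 RPKM (infant 1 to 3) against 2.7, 3.3 and 3.5 RPKM (young adult 1 to 3), with a change of -1.06 ± 0.23 on the log2 scale (adjusted p 0.0172). It lost the call without infant replicate 3, young adult replicate 1 or young adult replicate 2. The remaining 11 genes were not called. Ciart, a repressor of CLOCK and ARNTL that the table lists as Gm129, was named after its values were seen. It measured 12.2, 12.2 and 14 RPKM (infant 1 to 3) against 20.1, 18.2 and 15.5 RPKM (young adult 1 to 3), and with a log2 fold change of 0.45 ± 0.12 (adjusted p 0.0293) it was under the fold threshold.

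**Figure D3:**
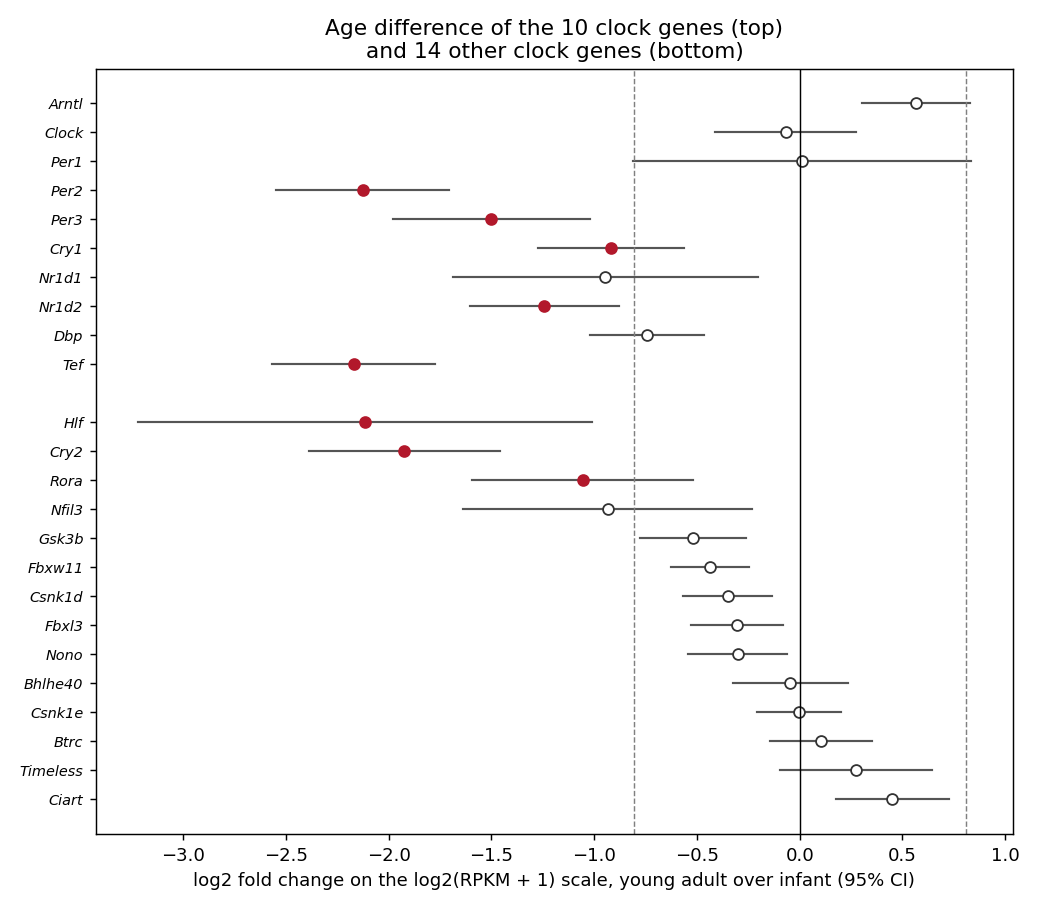
log2 fold change of young adult over infant EC on the log2(RPKM + 1) scale with its 95% confidence interval, for the 10 clock genes (top) and 14 other clock genes (bottom). Red points were called, and dashed lines mark the fold threshold (0.81 on the log2 scale). Tef, Per2, Hlf and Cry2 lie furthest to the left, and Arntl and Ciart are right of 0 but within the dashed lines.

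Among the 13 genes listed as outputs of the clock, 11 were tested, 1 was called higher and 0 lower, beside 3.33% and 8.10% of all genes. The gene called was Thbd, which encodes the anticoagulant receptor thrombomodulin. It measured 256.6, 375.5 and 257.3 RPKM (infant 1 to 3) against 527.4, 527.7 and 513.5 RPKM (young adult 1 to 3), with a change of 0.84 ± 0.18 on the log2 scale (adjusted p 0.0162), and was called in only 1 of the 6 fits without 1 library. Usp2, a deubiquitinase gene that cycles in many organs and was named after its values were seen, measured 1.0, 0.7 and 1.1 RPKM (infant 1 to 3) against 0.2, 0.3 and 0.2 RPKM (young adult 1 to 3), with a change of -0.64 ± 0.15 on the log2 scale (adjusted p 0.021), under the fold threshold.

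Genes that respond to glucocorticoids were listed because these hormones induce Per1. Of 12 tested, 2 were called lower and 0 higher, beside 8.10% and 3.33% of all genes, and the median log2 fold change was -0.01. The 2 called genes were Angptl4, a secreted inhibitor of lipoprotein lipase (-3.08 ± 0.30, adjusted p 0.00128), and the metallothionein gene Mt1 (-1.33 ± 0.37, adjusted p 0.0367). Mt1 was called in only 1 of the 6 fits that left out a library. In 3 genes named after their values were seen, infant replicate 2 was the highest infant library, as in Per1. Zbtb16, a transcription factor gene, measured 0.9, 8.2 and 0.7 RPKM (infant 1 to 3) against 12.3, 13.0 and 4.7 RPKM (young adult 1 to 3). Tsc22d3, which encodes GILZ, measured 111.1, 248.3 and 132.2 RPKM (infant 1 to 3) against 208.4, 202.7 and 178.1 RPKM (young adult 1 to 3). Cdkn1a, the p21 gene of the output list, measured 24.7, 85.5 and 23.6 RPKM (infant 1 to 3) against 76.2, 136.5 and 92.0 RPKM (young adult 1 to 3). None of the 3 passed the test, with adjusted p of 0.0888, 0.386 and 0.0653. Without infant replicate 2 the log2 fold changes were 2.50 for Zbtb16, 1.99 for Cdkn1a and 0.69 for Tsc22d3. Zbtb16 and Cdkn1a were called higher in this fit only, 1 of the 6 without 1 library, and Tsc22d3 stayed under the fold threshold. The genes were named with their high value in this library known, so the fit without it is no separate test of them. A maximum in this infant library was not particular to these genes. It was the highest infant library in 10 of 12 glucocorticoid response genes, in 8 of 11 output genes and in 14 of 16 endothelial markers. Tsc22d3 and Klf9 count in both the glucocorticoid and the output list. The share of all genes with their infant maximum in this library was not computed.

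Immediate early genes, which tissue digestion can induce, were mostly lower in young adult EC, 20 of 21 with a log2 fold change below 0. Of 21 tested, 10 were called lower, 0 higher and 11 did not pass, beside 8.10% of all genes called lower, and the median log2 fold change was -0.86. The largest called changes were those of the nuclear receptor gene Nr4a1 (-2.18 ± 0.41, adjusted p 0.0104), of Fos (-1.97 ± 0.23, adjusted p 0.002) and of Egr1 (-1.80 ± 0.32, adjusted p 0.00886). Nr4a1 lost the call without young adult replicate 2. The summed RPKM of the list was 1254.2 to 1800.6 in infant and 686.6 to 949.0 in young adult libraries. This sum was lower in young adult libraries, as most clock genes were, and its part in their differences was not tested. Per1, a clock gene that can also act as an immediate early gene, did not pass the test.

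**Figure D4:**
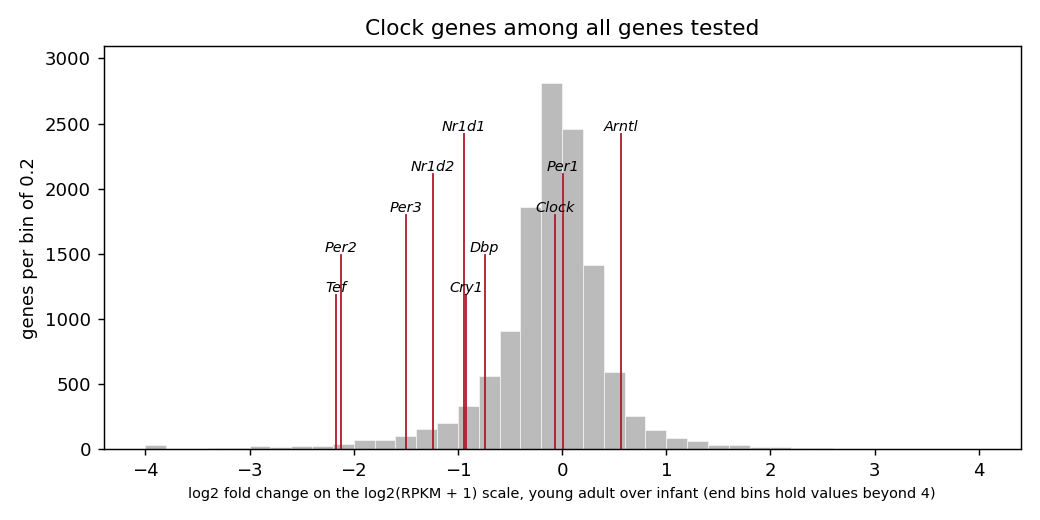
Number of genes per bin of 0.2 in log2 fold change (young adult over infant, log2(RPKM + 1) scale) for the 12458 genes tested, with red lines at the clock genes. Tef and Per2 lie in the thin left tail at -2.17 and -2.13, Per1 and Clock near the centre of the distribution, and Arntl at 0.57 on its right flank.

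The genes most like Dbp and Arntl over the 6 libraries were found by the root mean square difference of mean-centred log2(RPKM + 1), among genes with a mean of at least 5 RPKM. For Dbp these were Hmgn2, which encodes a nucleosome-binding protein (difference 0.05), Pcdh12, a protocadherin gene of endothelium (0.05), and Marcks (0.06). On this scale the pseudocount shrinks the 2.74-fold fall of Dbp to -0.74, while it hardly touches these far more abundant genes. The small differences therefore do not mean like ratios of RPKM. Hmgn2 measured 123.9, 132.7 and 129.4 RPKM (infant 1 to 3) against 71.4, 69.6 and 79.5 RPKM (young adult 1 to 3). For Arntl they were Ninj1 (0.06), Ogfod3 (0.07) and Aldh2 (0.07), the last a mitochondrial aldehyde dehydrogenase gene at 122.3, 106.0 and 115.4 RPKM (infant 1 to 3) against 190.8, 202.6 and 165.4 RPKM (young adult 1 to 3). Per1, Tef and Arntl had 2 transcript rows each, which differed by at most 0.4 RPKM in any library.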

How the data were processed

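The authors sequenced SMARTer Ultra Low cDNA libraries, aligned the reads to mm10 with STAR and deposited, for each RefSeq transcript, RPKM values with 1 decimal. Versions of the aligner and the source of the RPKM are not given in the sources used here. Reads per library are unknown, so no counting interval is given. There were 0 further columns of values. Per gene the transcript row with the highest mean was kept, and 24 rows with symbols turned into dates were renamed by accession. Genes that reached 1 RPKM in any library entered limma 3.58.1 (R 4.3.3) on log2(RPKM + 1), using lmFit and eBayes (intensity trend), with age as sole covariate and p-values adjusted by Benjamini-Hochberg across all genes. Filter and fold threshold follow the study, whose count test was replaced because RPKM are not counts. Fold changes of low genes are understated by the pseudocount. Members and lists were chosen with earlier results of these data known. Named were all members, called genes of the other clock list, up to 3 called genes of each further list, and the 3 genes most like Dbp and Arntl. Ciart, Usp2, Zbtb16, Tsc22d3 and Cdkn1a, and markers named singly, fall outside it and were chosen after their values were seen. Replicates are separate samples by the labels. Gene positions and exonic overlaps are from GENCODE M21 (GRCm38), promoter sequences from RefSeq (GRCm38.p6).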

Additional observations from a re-analysis of the deposited data

How the results depend on the processing

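The count of 5 members called lower was 2 with a pseudocount of 5, where Per3 (-0.66), Nr1d2 (-0.73) and Cry1 (-0.40) lost the call. Of all 12458 genes, 338 were called lower with that pseudocount, in place of 1009. Cry1 also lost the call under quantile normalization (-0.66). Dbp was called with a pseudocount of 0.1 (-1.32), and Nr1d1 after rescaling without globin genes (-1.04) and with a replicate block (-0.95). Under quantile normalization Dbp was at -0.41 (limma adjusted p 0.0528). The log2 fold change of Per1 was -0.0199 with a pseudocount of 5 and -0.0682 without globin genes, and -0.25 to 0.45 without 1 library. That of Clock was 0.0089 at the same total RPKM, 0.028 under quantile normalization and -0.16 to 0.0684 without 1 library. With no fold threshold 1 member was called higher, as were 1 other clock gene and 2 output genes, while 6 other clock genes and 1 output gene were called lower. The Dbp to Arntl difference was -1.98 with a pseudocount of 0.1 and -0.61 with 5.

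The count of output genes called higher was 2 at the same total RPKM, with array weights and with the replicate block, and 0 under quantile normalization and without globin genes. 1 output gene was called lower with a pseudocount of 0.1. 1 glucocorticoid gene was called higher with array weights and with the replicate block, and 1 lower with robust eBayes. Without 1 library, 1 to 4 other clock genes were called lower (1 without infant replicate 3 or young adult replicate 1 or 2) and 0 to 2 output genes higher (2 without infant replicate 2, otherwise 0). 0 to 1 glucocorticoid genes were called higher (1 without infant replicate 2) and 1 to 3 lower (1 without infant replicate 2 or 3 or young adult replicate 1 or 2). 6 to 12 immediate early genes were called lower (6 without infant replicate 1 or young adult replicate 2). The cause of these changes was not tested. The replicate numbers did not pair the libraries (correlations of same-numbered deviations 0.03, -0.11 and -0.02), and the block changed no other call of a member.

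Quantile normalization shifted the all-gene median from -0.07 to 0.05 (log2) and gave 529 higher and 630 lower calls in place of 415 and 1009. Relative to the median of all genes, the median of the members was -0.86 as deposited and -0.82 under quantile normalization. With 3 libraries a group, a rounding step of 0.1 RPKM and unknown depth, differences of members under 1 RPKM are imprecise.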
